A study of Mus musculus with 10 samples.

Results

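The 8 genes described here, Postn, Spp1, Tnc, Sparc, Thbs1, Thbs2, Fn1 and Tgfbi, are grouped here as matricellular genes, though fibronectin, the product of Fn1, is also a structural protein of the matrix. They were taken by name from the gene table of the series, 8 of its 55417 named genes, and their RNA was followed in 10 mouse mammary carcinoma lines with 1 library each. The metastasis lines 5, 3 and 7 were grown from lung metastases, the CTC lines 1, 3 and 6 from circulating tumour cells, and the primary lines 5, 7 and 8 from fat pad tumours. All 9 carry the strain label NOD-SCID-GAMMA, an immunodeficient mouse that lacks lymphocytes, and per the labels each goes back to CTCs of mice inoculated in the fat pad with 4T1-hHER2-Luc cells. The last group is the parental line, 4T1-hHER2 (strain label BALB/cfC3H, tissue label mammary gland), to which a lentivirus added human HER2 and luciferase. It has 1 library and no replicate, and the derived lines come from cells that carry the same insert. The labels do not say whether a line is a clone, or whether lines with the same number share a mouse.

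Matricellular proteins are secreted into the extracellular matrix, where they act on cells through integrins and other receptors and bind growth factors, rather than mainly forming the scaffold. They are known for being low in most resting adult tissue and abundant in development, wounds and tumours. In mammary carcinoma, periostin, tenascin-C and osteopontin are known from the matrix of the primary tumour and of lung metastases, made by stromal cells, by tumour cells or by both.

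RNA was read as pairs on a HiSeq instrument after a TruSeq total RNA preparation, per the labels' protocols. The libraries held between 79869760 and 97722716 estimated counts. Levels are given as CPM, counts scaled to the same total of named-gene counts in each library, with TMM as the correction for differences in composition. At this depth a count of 0 allows a level of up to 0.0390 to 0.0465 CPM, the level of 3 counts, which covers counting error only. The 9 epithelial markers listed for the labelled carcinoma cells summed to 1226 to 2919 CPM in metastasis, 1523 to 2686 CPM in CTC and 2088 to 3619 CPM in primary lines, against 1314 CPM in the parental line, and each was detected in every group. The 10 fibroblast markers summed to 16.8 to 303 CPM in metastasis, 11.2 to 142 CPM in CTC and 5.07 to 77.3 CPM in primary lines, against 5.62 CPM in the parental line. Pdgfra was the largest part of that sum in each library, while Col1a1 reached at most 2.32 CPM and Col3a1 at most 0.325 CPM. The 8 markers of macrophages and other blood cells summed to 8.21 to 14.6 CPM in metastasis, 11.5 to 12.9 CPM in CTC and 12.1 to 18.2 CPM in primary lines, against 5.75 CPM in the parental line, with Adgre1 at 0 in all 10 libraries. Endothelial markers summed to at most 1.49 CPM, platelet markers to at most 7.09 CPM and lung epithelial markers to at most 4.80 CPM, with Emcn, Sftpc and Sftpa1 at 0 throughout. The part of other cells in the values below was not tested beyond these sums. In RNA from a whole culture, fewer cells that carry a transcript and less of it per cell cannot be told apart. The p-values measure the spread between these lines only.

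The 8 genes fell into an abundant and a scarce set when compared per length, as CPM per kilobase of exon averaged over the 10 libraries. Spp1 had 1954 CPM per kilobase, Fn1 302, Thbs1 69.0 and Sparc 67.5. Postn had 0.874 CPM per kilobase, Tnc 0.758, Thbs2 0.524 and Tgfbi 0.161. The lowest single value of the abundant set was 9.54 CPM per kilobase, of Thbs1 in CTC 6. The highest of the scarce set was 4.20 CPM per kilobase, of Postn in the parental line. The length used covers all annotated exons of a gene, 8702 bases for Postn and 6073 for Thbs1. The main counted transcript had 3121 bases for Postn in the parental line and 5848 for Thbs1 in CTC 6. By these lengths that Postn value (36.6 CPM) would lie above that Thbs1 value (57.9 CPM). The gap between the single values thus depends on the length used. Within each set the neighbours in the order of the averages overlapped over the 10 lines. Spp1 ran from 27.8 to 5792 CPM per kilobase and Fn1 from 100.1 to 578, and Thbs1 ran from 9.54 to 231 and Sparc from 34.2 to 136. The scarce genes were mostly the more uneven between lines, with Spp1 the exception among the abundant ones. On the log2 CPM scale the SD over the 10 libraries was 4.38 for Postn, 3.22 for Thbs2, 2.38 for Spp1 and 2.04 for Tnc, and 99.9%, 99.6%, 97.9% and 96.1% of the 19935 tested genes had a smaller one. Tgfbi had an SD of 1.87 and Thbs1 of 1.37. Fn1 (0.65) and Sparc (0.62) lay near the median gene (0.70).

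**Figure D1:**
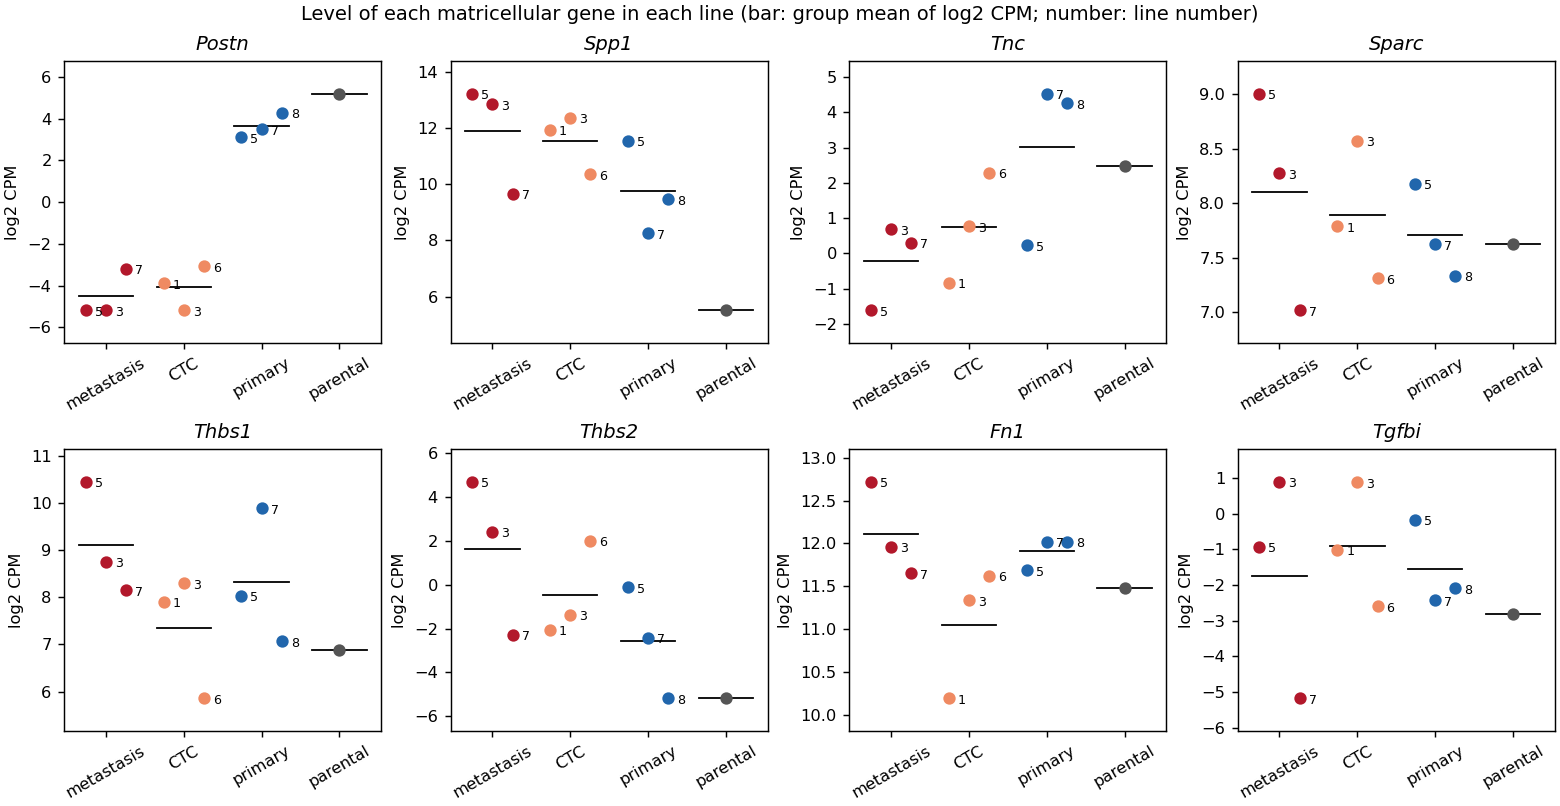
Level of each gene in each line as log2 CPM (y axis, own range per panel) with metastasis, CTC, primary and parental lines from left to right. Each point is 1 library with its line number, and each bar is the mean of log2 CPM in a group. Libraries with a count of 0 lie at the lowest value, set by a prior count of 2. Postn of all 6 metastasis and CTC lines lies below that of the primary and parental lines, while Spp1 of the parental line lies below all others.

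Over the 8 genes together, the quasi-likelihood F test of edgeR, adjusted by Benjamini-Hochberg at a threshold of 0.05, called 0 genes in metastasis against primary, where it called 0% of the 19935 genes tested. It called 0 of 8 in CTC against primary (0% of all genes), in metastasis against CTC (0.00502%), in CTC and metastasis together against primary (0%), in derived lines against parental (0.0201%, of which 0.015% lower and 0.00502% higher) and in any difference among the 3 derived groups (0%). All 8 genes passed the filter on low counts. At an unadjusted p under 0.05 the numbers were 3 of 8 in metastasis against primary, where 8.29% of all genes lay, 2 in CTC against primary (4.06%) and 1 in metastasis against CTC (3.29%). They were 2 in the joint comparison with primary lines (7.59%), 2 in derived lines against parental (10.3%) and 2 in any difference among the derived groups (5.2%). DESeq2 called 2 of 8 in metastasis against primary, Postn and Tnc (0.938% of all genes), 1 in CTC against primary, Postn (0.331%), and 0 in metastasis against CTC (0.14%). It called Postn and Tnc in the joint comparison (0.778%), Postn and Spp1 in derived lines against parental (3.38%) and Postn in any difference among the derived groups (0.697%).

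The groups did not overlap for 1 or 2 of the 8 genes in each comparison, given here beside the share of all genes. In metastasis against primary this was Postn alone, 1 of 8 genes lower and 0 higher, where 7.27% of all genes lay lower without overlap, 6.38% higher and 13.6% in either direction. In CTC against primary it was Postn and Fn1, 2 of 8 lower and 0 higher, against 4.02% of all genes lower, 3.13% higher and 7.15% in either direction. In metastasis against CTC it was Fn1, 1 of 8 higher and 0 lower, against 4.43% higher, 3.85% lower and 8.28% in either direction. With CTC and metastasis lines together against primary it was Postn, 1 of 8 lower and 0 higher, against 1.55% lower, 1.06% higher and 2.61% in either direction. Every derived line was above the parental line for Spp1 (14.1% of all genes) and below it for Postn (15.4%), 2 of 8 genes where 29.5% of all genes were on 1 side. The median log2 change of the 8 genes was 0.61 for metastasis against primary (all genes 0.01), -0.26 for CTC against primary (-0.01), 0.54 for metastasis against CTC (0.00) and 1.08 for derived lines against parental (0.10). The 8 genes pointed both ways in each comparison, with 6 higher and 2 lower in metastasis against primary and 4 higher and 4 lower in CTC against primary.

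**Figure D2:**
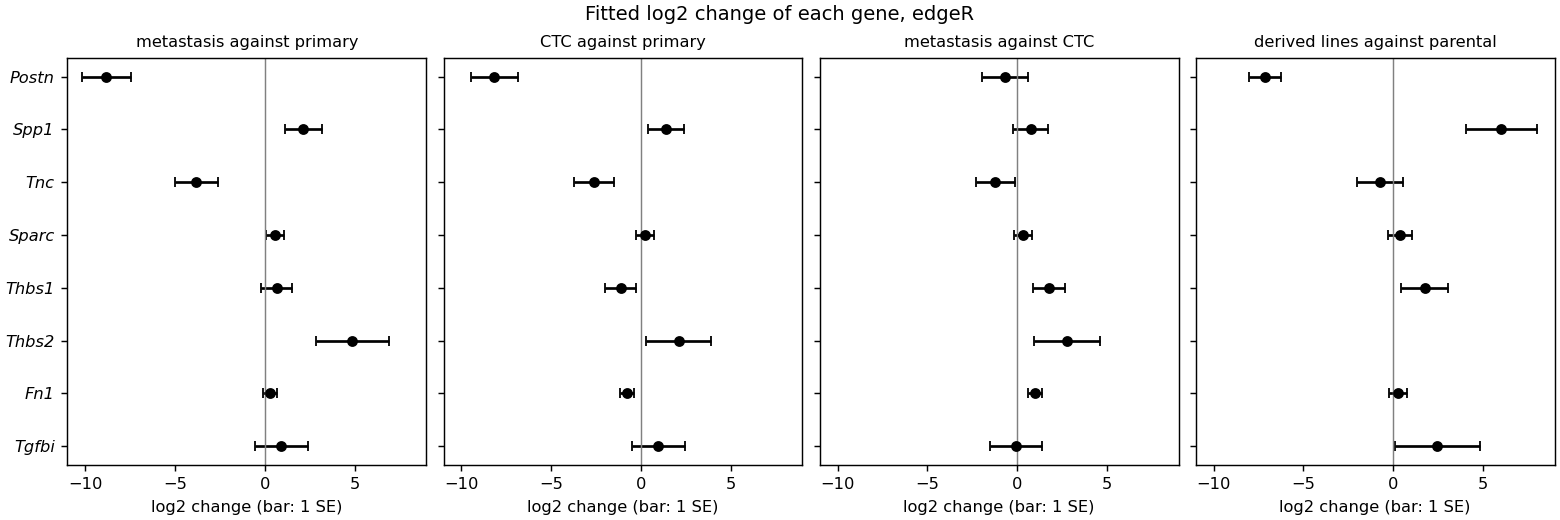
Fitted log2 change (x axis) of each of the 8 genes (y axis) by edgeR in 4 comparisons, with bars of 1 SE. Values left of the line at 0 are lower in the group named first. Postn lies at -8.84 and -8.17 in the comparisons with primary lines and at -7.15 against the parental line, Tnc at -3.82 and -2.62 against primary lines, and Thbs2 is left out of the last panel because its parental count is 0.

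Postn encodes periostin, a fasciclin-domain protein that binds collagen, fibronectin and tenascin-C and signals through alpha-v integrins. It was present in the primary and parental lines and at or near 0 in every metastasis and CTC line. The gene lies on chromosome 3 (chr3:54361109-54391037, plus strand, GRCm38), and no other annotated gene overlaps it. Its identifier is ENSMUSG00000027750.16. The sequence around its start is shown because all annotated transcripts of the gene were scarce together in the metastasis and CTC lines. It is the 300-base RefSeq window around the start (chr3:54360857-54361156, plus strand, GRCm38.p6), with the 1 motif match in capitals.
Postn promoter: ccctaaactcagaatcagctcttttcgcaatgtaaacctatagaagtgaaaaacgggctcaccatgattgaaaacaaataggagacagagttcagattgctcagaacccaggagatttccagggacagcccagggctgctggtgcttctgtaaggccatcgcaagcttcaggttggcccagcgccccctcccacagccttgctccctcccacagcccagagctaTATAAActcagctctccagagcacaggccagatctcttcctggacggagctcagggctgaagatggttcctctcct
The capitals are TATAAA, the TATA box, which begins at position -26, where -1 is the base before the start. It is present, on either strand, in 13.6% of the 32851 mouse promoter windows of this length. Of the other motifs searched on both strands, TGANTCA (AP-1), TGTGGT (RUNX), GGAATG (TEAD), CAGACA (SMAD) and CAGCTG (E-box), none is in the window, and nothing about these factors follows from that. They are in 7.81%, 16.8%, 14.7%, 21.0% and 16.3% of all windows, in the same order.

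Postn had 0, 0 and 0.0818 CPM in metastasis lines 5, 3 and 7, or 0, 0 and 6 counts. It had 0.0400, 0 and 0.0915 CPM in CTC lines 1, 3 and 6, or 3, 0 and 6 counts. The primary lines 5, 7 and 8 had 8.59, 11.2 and 19.4 CPM, or 616, 853 and 1415 counts. The parental line stood above all of them with 36.6 CPM and 2582 counts. The highest of the 6 metastasis and CTC lines was thus near 0.1 CPM, and the lowest primary line above 8 CPM. The mean was 0.0273 ± 0.0472 CPM in metastasis and 0.0438 ± 0.0459 CPM in CTC lines, against 13.1 ± 5.67 CPM in primary lines (SD, n = 3 each). The fitted log2 change was -8.84 (SE 1.37) for metastasis against primary and -8.17 (SE 1.32) for CTC against primary, and both sizes depend on the prior count, since 3 of the 6 libraries hold no read. The unadjusted p was 0.000111 and 0.000153, rank 4 and 3 of 19935 genes, and the adjusted p 0.360 and 0.672 (edgeR, Benjamini-Hochberg). With CTC and metastasis lines in 1 group against primary lines the log2 change was -8.50 (SE 0.98), with an adjusted p of 0.107 (edgeR, Benjamini-Hochberg). These comparisons share the primary lines. None passed at 0.05, although the groups were far apart in each.

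The call on Postn depended on the tool. DESeq2 gave an adjusted p of 1.81e-13 for metastasis against primary, 2.72e-12 for CTC against primary and 1.60e-19 for both together, all past the threshold. Limma-voom called Postn with both together against primary (adjusted p 0.0383, 0.01% of all genes called), and so did limma-voom with lines of the same number treated as a random block (adjusted p 0.0197). Over all alternatives its adjusted p ran from 1.60e-19 to 1 in the joint comparison, from 1.81e-13 to 0.943 for metastasis against primary and from 2.72e-12 to 1 for CTC against primary. Leaving out any 1 derived line kept the log2 change of metastasis against primary between -12.9 and -8.27. Where Postn was lower, the epithelial markers of the carcinoma list were mostly lower too. Below primary lay 8 of 9 in the metastasis lines (median log2 change -1.99) and 7 of 9 in the CTC lines (median -2.37). With both together it was 8 of 9 (median -2.09). None was called by edgeR. At an unadjusted p under 0.05 (edgeR) the numbers were 4, 6 and 7 of 9, against 8.29%, 4.06% and 7.59% of all genes. DESeq2 called 2, 1 and 4 (0.938%, 0.331% and 0.778% of all genes). The part of this in the Postn values was not tested. Of the 8 fibroblast markers tested, 7 were higher and 1 lower in metastasis against primary (median log2 change 1.11). In CTC against primary 2 were higher and 6 lower (median -2.78), with 3 at an unadjusted p under 0.05 (edgeR), where 4.06% of all genes lay. With both together against primary 2 were higher and 6 lower (median -0.51). None was called by edgeR, and the part of these in the Postn values was not tested.

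The nearest protein-coding genes with reads on either side of Postn were read in all lines. Ufm1 (chr3:53853376-53863830), which encodes a ubiquitin-like modifier, ran from 60.4 CPM in primary 5 to 160 CPM in the parental line. Supt20 (chr3:54692807-54728766), which encodes a subunit of a histone acetyltransferase complex, ran from 8.34 to 15.2 CPM. The split seen for Postn was therefore not seen in Ufm1 and Supt20, which do not adjoin it. In the 4 lines with more than 6 counts, Postn was spread over 4 annotated coding transcripts that differ in 2 cassette exons near the 3′ end, as periostin is known for. An exon of 81 bases (chr3:54380412-54380492) was on 42.1%, 35.2% and 36.9% of the counts in primary lines 5, 7 and 8, against 32.8% in the parental line. An exon of 84 bases (chr3:54385671-54385754) was on 11.9%, 23.4% and 38.8% in primary lines 5, 7 and 8, against 20.2% in the parental line. The 81-base exon thus took a similar share in all 4 lines, while that of the 84-base exon was uneven among the primary lines, whose range held the parental value. Both lengths are multiples of 3.

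The genes whose log2 CPM was most alike to that of Postn over the 10 libraries were Slc40a1 (Pearson's r 0.94), Pls1 (0.93) and Rassf5 (0.93). These are descriptions from libraries that share depth, scaling and ancestry. Slc40a1, the gene of the iron exporter ferroportin, had 1.72, 0.694 and 1.28 CPM in metastasis lines 5, 3 and 7 and 0.600, 0.790 and 1.16 CPM in CTC lines 1, 3 and 6. It had 6.72, 5.38 and 11.7 CPM in primary lines 5, 7 and 8 and 7.27 CPM in the parental line. Its metastasis and CTC lines lay below its primary lines, as for Postn (1.55% of all genes), but its parental value lay within the primary range.

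Tgfbi encodes the transforming growth factor beta induced protein, the second fasciclin-domain member, which binds integrins and collagen. It lies on chromosome 13 (chr13:56609523-56639562, plus strand, GRCm38; ENSMUSG00000035493.10). It was scarce in all lines, and its order of the lines was not that of Postn. It had 0.494, 1.83 and 0 CPM in metastasis lines 5, 3 and 7, and 0.467, 1.81 and 0.137 CPM in CTC lines 1, 3 and 6. Primary lines 5, 7 and 8 had 0.864, 0.158 and 0.206 CPM, and the parental line had 0.113 CPM. No library held more than 140 of its counts, the groups overlapped, and the 2 highest values belong to the lines numbered 3. These 2 differ in transcript: the coding Tgfbi-201 held 98.6% in metastasis 3 and 30.8% in CTC 3. Tgfbi-204, annotated as nonsense-mediated decay and not as coding, held 67.5% in CTC 3. It held 83.9% to 100% in primary lines and 100% in the parental line, on few counts. The log2 change of Tgfbi was 0.92 (SE 1.47) for metastasis against primary and 0.97 (SE 1.48) for CTC against primary, with SEs wider than the changes. Its sign turned in several alternatives, so no direction can be given.

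Spp1 encodes osteopontin, a phosphorylated glycoprotein of the SIBLING family that binds alpha-v integrins and CD44. It was high in every derived line, and the parental line had far less. The gene lies on chromosome 5 (chr5:104435118-104441050, plus strand, GRCm38; ENSMUSG00000029304.14). Its RefSeq start window (chr5:104434861-104435160, plus strand, GRCm38.p6) is shown beside that of Postn because the levels of these genes ran in opposite directions over the lines. The capitals mark its motif matches.
Spp1 promoter: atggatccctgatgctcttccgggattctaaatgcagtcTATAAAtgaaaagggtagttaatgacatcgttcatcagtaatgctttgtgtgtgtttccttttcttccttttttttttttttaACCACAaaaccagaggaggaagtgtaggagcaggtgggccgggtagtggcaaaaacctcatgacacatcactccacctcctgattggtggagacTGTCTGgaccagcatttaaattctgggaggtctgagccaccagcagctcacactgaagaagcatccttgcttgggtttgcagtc
In order the capitals are TATAAA at position -211, ACCACA at -128, which is TGTGGT (RUNX) on the other strand, and TGTCTG at -34, which is CAGACA (SMAD) on the other strand. Such matches are common, at the shares of all windows given for Postn.

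Spp1 had 9545, 7322 and 808 CPM in metastasis lines 5, 3 and 7. CTC lines 1, 3 and 6 had 3924, 5242 and 1311 CPM, and primary lines 5, 7 and 8 had 2989, 305 and 708 CPM. The parental line had 45.9 CPM. Every derived line lay above the parental line, from 305 CPM upward, but the 3 derived groups overlapped: metastasis 7 lay below primary 5. The mean was 5892 ± 4540 CPM in metastasis, 3492 ± 2000 CPM in CTC and 1334 ± 1447 CPM in primary lines (SD, n = 3 each). The log2 change was 2.14 (SE 1.02) for metastasis against primary, with an unadjusted p of 0.0636 (edgeR), and 1.39 (SE 0.99) for CTC against primary. Neither passed, and the first ran from 1.61 to 3.54 when single lines were left out, with 3.54 reached without primary 5.

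Against the parental line the mean of the derived lines was 77.9 times as high. The log2 change was 6.04 (SE 1.99), with an unadjusted p of 0.0139 and an adjusted p of 0.459 (edgeR, Benjamini-Hochberg), so that it did not pass. DESeq2 called it (adjusted p 0.000186), in a range of 0.000186 to 0.635 over all alternatives. The parental value is a single library, so its own spread is unknown. The fibroblast marker Pdgfra followed a similar order, with 269, 126 and 11.3 CPM in metastasis lines 5, 3 and 7 and 72.3, 141 and 10.1 CPM in CTC lines 1, 3 and 6. It had 58.1, 4.84 and 4.05 CPM in primary lines 5, 7 and 8 and 4.45 CPM in the parental line. Of the 8 fibroblast markers tested, 6 were higher in derived lines against parental and 2 lower (median log2 change 3.62). By edgeR none was called, with 1 at an unadjusted p under 0.05 (10.3% of all genes). DESeq2, which called 3.38% of all genes, called Dcn and Pdgfrb higher. Both were at 0 in the parental line and highest in metastasis 5, at 12.4 and 18.7 CPM. Pdgfrb was also at 0 in metastasis 3 and CTC 3, which were high in Spp1. Col1a1 was highest in primary 7, at 2.32 CPM, and at 0 in CTC 1, and Fap was highest in the parental line, at 0.354 CPM. Lum and Thy1 reached at most 0.0524 and 0.123 CPM, and the part of such cells in the Spp1 values was not tested.

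Osteopontin is 1 of 5 SIBLING genes, which lie in a row on chromosome 5 and encode proteins of the bone and tooth matrix. The others were chosen for this account after their values were seen. Dmp1, which encodes a dentin matrix protein, had 18.8, 46.7 and 0.464 CPM in metastasis lines 5, 3 and 7, and 12.2, 23.7 and 0 CPM in CTC lines 1, 3 and 6. In primary lines 5, 7 and 8 it had 5.30, 0 and 0 CPM, and the parental line had 0. The lines with more than 1 CPM of Dmp1 were thus the 5 lines with the most Spp1. Ibsp, which encodes bone sialoprotein, reached at most 2.87 CPM, in primary 5, with 0 in the parental line. Mepe had 0 counts in all 10 libraries, and Dspp had 4 counts, all in CTC 3. Sparcl1, a relative of Sparc that lies beside the cluster, had 21.2, 3.39 and 0.791 CPM in metastasis, 5.57, 1.87 and 1.25 CPM in CTC and 4.49, 0.158 and 0 CPM in primary lines, against 0 in the parental line. Pkd2, the polycystin-2 gene on the other side of Spp1, ran from 37.7 CPM in the parental line to 178 CPM in metastasis 3. Every derived line lay above the parental line in Pkd2, as for Spp1 (14.1% of all genes). Its highest lines were metastasis 3, CTC 3 and metastasis 5, which were also the highest in Spp1, but primary 8, low in Spp1, had 122 CPM. By edgeR none of Dmp1, Ibsp and Sparcl1 was called in any comparison. Mepe was not tested, and no test is given here for Dspp and Pkd2. DESeq2 called Dmp1, Ibsp and Sparcl1 higher in derived lines against parental, where it called 3.38% of all genes.

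**Figure D3:**
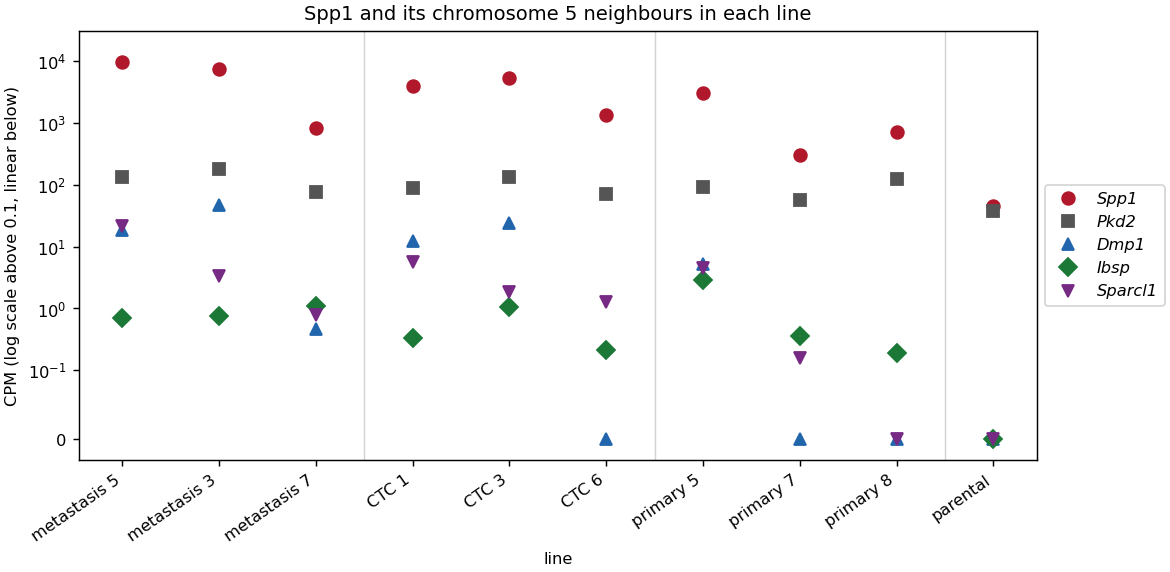
CPM of Spp1 and of its neighbours on chromosome 5 (y axis, log scale above 0.1 and linear below) in each of the 10 lines (x axis, metastasis, CTC, primary and parental from left to right). Each symbol is 1 gene in 1 library. Spp1 runs from 9545 CPM in metastasis 5 down to 45.9 CPM in the parental line. Dmp1 is at 0 in CTC 6, primary 7, primary 8 and the parental line. Pkd2 runs from 178 CPM in metastasis 3 down to 37.7 CPM in the parental line.

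The Spp1 counts were spread over 4 coding transcripts. Spp1-204, the form with 6 exons, held 11.9% to 26.8% of the counts in metastasis, 6.91% to 30.5% in CTC and 6.94% to 18.5% in primary lines, against 0.0927% in the parental line. Spp1-205 held 44.4% to 63.7%, 42.8% to 63.6% and 52.9% to 63.1% in the same 3 groups, against 31.2% in the parental line. The parental library thus stood outside the range of the derived lines for both forms. Their coding length is the same, 882 bases. Gm42793, a gene on the same strand that shares exons with Spp1, held 3 to 1614 counts, against 3237 to 733573 for Spp1, so that it could take little of the total. The genes most alike to Spp1 over the 10 libraries were Orai3, a calcium channel gene (r 0.99), Gpm6b (0.98) and Hhip (0.98), the gene of a hedgehog-binding inhibitor. Hhip had 183, 108 and 15.1 CPM in metastasis, 75.0, 128 and 31.8 CPM in CTC and 76.4, 9.63 and 26.4 CPM in primary lines, against 3.65 CPM in the parental line.

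Tnc encodes tenascin-C, a large hexameric protein of fibronectin type III repeats that binds fibronectin, integrins and syndecans. It lies on chromosome 4 (chr4:63959785-64047015, minus strand, GRCm38; ENSMUSG00000028364.15), and its level was low. It had 0.299, 1.57 and 1.20 CPM in metastasis lines 5, 3 and 7, or 23, 120 and 88 counts. CTC lines 1, 3 and 6 had 0.533, 1.67 and 4.85 CPM, and primary lines 5, 7 and 8 had 1.14, 23.1 and 19.1 CPM. The parental line had 5.50 CPM. Primary 7 and 8 were thus highest, but primary 5 lay among the metastasis and CTC lines, so the groups overlapped. The mean was 1.02 ± 0.654 CPM in metastasis and 2.35 ± 2.24 CPM in CTC lines, against 14.4 ± 11.7 CPM in primary lines (SD, n = 3 each). The log2 change was -3.82 (SE 1.19) for metastasis against primary, with an unadjusted p of 0.0107 and an adjusted p of 0.594 (edgeR, Benjamini-Hochberg). It was -2.62 (SE 1.13) for CTC against primary. DESeq2 called Tnc in metastasis against primary (adjusted p 0.0264, the lowest of a range up to 0.943 over the alternatives) and with both groups together against primary (adjusted p 0.0365, the lowest of a range up to 1.00).

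The form of Tnc differed between lines as well. An exon that sets Tnc-203 apart from the other forms is shown, since tenascin-C is known for repeats that are spliced in or out. It has 273 bases (chr4:63984460-63984732, minus strand, GRCm38), printed in capitals between 10 bases of each neighbouring exon in lower case.
Tnc exon: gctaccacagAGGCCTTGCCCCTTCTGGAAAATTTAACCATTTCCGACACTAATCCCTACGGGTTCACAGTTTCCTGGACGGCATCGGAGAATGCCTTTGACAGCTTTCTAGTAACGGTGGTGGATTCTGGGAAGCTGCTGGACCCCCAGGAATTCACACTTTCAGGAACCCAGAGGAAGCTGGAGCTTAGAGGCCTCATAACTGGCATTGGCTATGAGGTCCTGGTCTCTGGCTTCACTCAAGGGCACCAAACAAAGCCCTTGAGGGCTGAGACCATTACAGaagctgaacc
Of the 3 annotated coding transcripts with counts, Tnc-203 has this exon, and Tnc-201 and Tnc-204 do not. Tnc-204 has the coding length of Tnc-201, 6057 bases, but 7100 bases in 26 exons against 6833 in 25. It thus differs outside the coding part too. Tnc-204 held 82.4%, 92.8% and 91.9% of the Tnc counts in CTC 6, primary 7 and primary 8. The shares below are of whole transcripts and cannot be tied to the 273-base exon alone. Transcripts with the exon held 100%, 81.7% and 71.6% of the Tnc counts in metastasis lines 5, 3 and 7. They held 100%, 100% and 1.58% in CTC lines 1, 3 and 6 and 86.6%, 4.96% and 5.48% in primary lines 5, 7 and 8, against 78.3% in the parental line. The exon was thus on few transcripts in CTC 6, primary 7 and primary 8, the 3 derived lines with the most Tnc, and on most transcripts elsewhere. The smallest number behind a share was 23 counts in metastasis 5, with a 95% Wilson interval of 85.7% to 100%. The interval was 0.676% to 3.64% in CTC 6, and these intervals cover counting error only, not the error of sharing reads among transcripts. Counts of the form with the exon ran over a narrower range than those of the form without it. Transcripts with the exon held 23, 98 and 63 counts in metastasis, 40, 108 and 5 in CTC and 71, 87 and 76 in primary lines, against 300 in the parental line. Transcripts without it held 0, 22 and 25 counts in metastasis, 0, 0 and 312 in CTC and 11, 1666 and 1312 in primary lines, against 83 in the parental line. 8030451A03Rik, on the other strand, shares exons with Tnc and held 0 to 78 counts, and the sources used here do not say whether counting used strand.

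**Figure D4:**
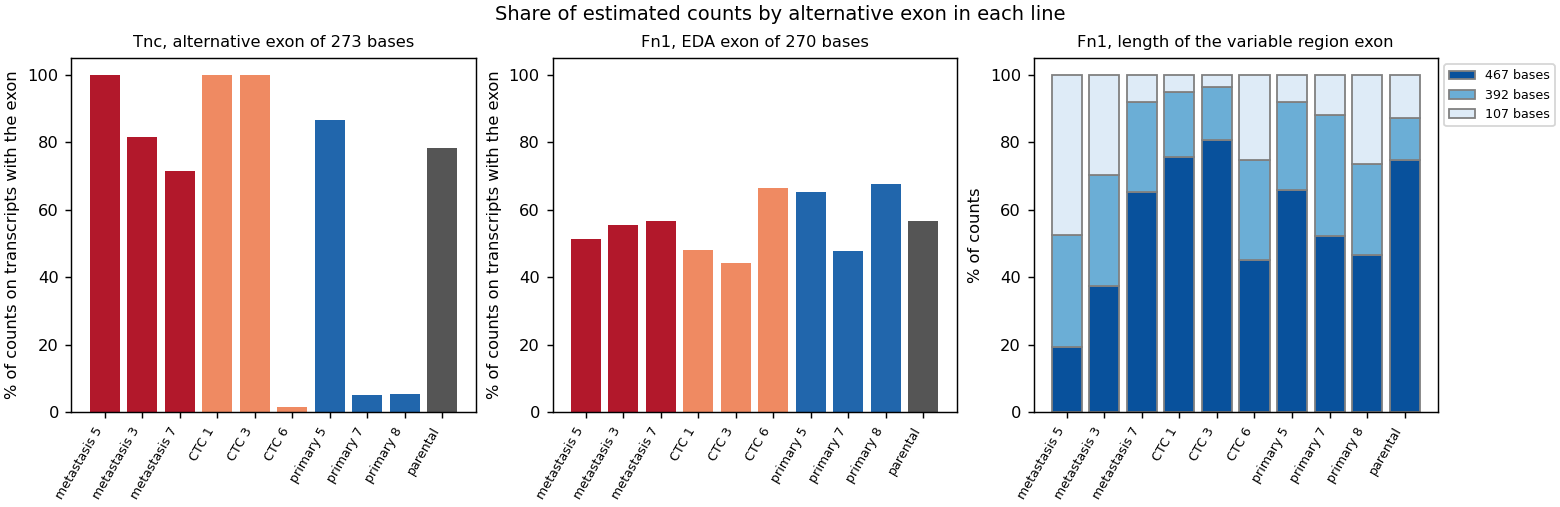
Share of the estimated counts (y axis, percent) by alternative exon in each of the 10 lines (x axis, metastasis, CTC, primary and parental from left to right). Bars stand for single libraries. The left panel shows Tnc transcripts with the 273-base exon, at 1.58% in CTC 6 and 100% in metastasis 5, CTC 1 and CTC 3, the middle panel Fn1 transcripts with the EDA exon, between 44.2% and 67.7%, and the right panel the 3 lengths of the Fn1 variable region exon.

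The genes most alike to Tnc over the 10 libraries were Baalc (r 0.97), Ptdss1, which encodes a phosphatidylserine synthase (0.97), and Polr3g, which encodes a subunit of RNA polymerase III (0.95). Ptdss1 spanned only 55.6 to 85.3 CPM, so that its pattern is alike in order and not in size. Its highest values, 85.3 and 82.9 CPM, were those of primary 7 and 8.

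Thbs1 and Thbs2 encode thrombospondin-1 and thrombospondin-2, trimeric proteins that bind CD36 and CD47 and are known as inhibitors of blood vessel growth. Thrombospondin-1 is also known to activate latent transforming growth factor beta. Thbs1 lies on chromosome 2 (chr2:118111876-118127133, plus strand, GRCm38; ENSMUSG00000040152.8) and was abundant in all lines. It had 1403, 430 and 284 CPM in metastasis lines 5, 3 and 7, and 239, 315 and 57.9 CPM in CTC lines 1, 3 and 6. Primary lines 5, 7 and 8 had 261, 948 and 134 CPM, and the parental line had 118 CPM. Metastasis 5 and primary 7 stood highest, CTC 6 lowest, and the groups overlapped. Its log2 change was 0.66 (SE 0.87) for metastasis against primary, -1.13 (SE 0.88) for CTC against primary and 1.79 (SE 0.89) for metastasis against CTC. The first became -0.33 without metastasis 5 and the second 0.05 without primary 7, so that neither direction holds over the lines.

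Thbs2 lies on chromosome 17 (chr17:14665500-14694235, minus strand, GRCm38; ENSMUSG00000023885.9), and was scarce and uneven. It had 25.7, 5.26 and 0.177 CPM in metastasis lines 5, 3 and 7, or 1973, 402 and 13 counts. CTC lines 1, 3 and 6 had 0.213, 0.356 and 3.93 CPM, primary lines 5, 7 and 8 had 0.892, 0.158 and 0 CPM, and the parental line had no read. Metastasis 5 held more Thbs2 than all other libraries together, and metastasis 7 lay below primary 5, so that the groups overlapped. The mean was 10.4 ± 13.5 CPM in metastasis and 1.50 ± 2.11 CPM in CTC lines, against 0.350 ± 0.476 CPM in primary lines (SD, n = 3 each). The log2 change for metastasis against primary was 4.88 (SE 2.04), with an unadjusted p of 0.0396 and an adjusted p of 0.594 (edgeR, Benjamini-Hochberg), and it was 2.95 without metastasis 5. Set against the level of 3 counts in the parental library, the mean of the derived lines was at least 95.9-fold higher. Without metastasis 5, left out after the data were seen, this bound was 32.3-fold, and primary 8 was at 0 like the parental line. The genes most alike to Thbs2 were Gpc1, which encodes the heparan sulphate proteoglycan glypican-1 (r 0.91), Tanc1 (0.91) and Rmdn2 (0.90). The genes most alike to Thbs1 were Hsdl2 (0.94), Txndc11 (0.93) and Fam234a (0.93), none of them shared with Thbs2.

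Sparc encodes osteonectin, a calcium- and collagen-binding protein that is known to counter cell adhesion. It lies on chromosome 11 (chr11:55394500-55423183, minus strand, GRCm38; ENSMUSG00000018593.13) and was the steadiest of the 8 genes over the 10 libraries. It had 513, 309 and 130 CPM in metastasis lines 5, 3 and 7, and 221, 380 and 159 CPM in CTC lines 1, 3 and 6. The primary lines 5, 7 and 8 had 289, 197 and 161 CPM, and the parental line had 198 CPM. The highest line was 3.96 times the lowest, and the groups overlapped in every comparison. It differed by a log2 change of 0.56 (SE 0.50) for metastasis against primary and 0.23 (SE 0.50) for CTC against primary. The genes most alike were Zmym3 (r 0.97), Polm (0.94) and Hspa13 (0.93).

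Sparc counts were spread over 2 coding transcripts, Sparc-201 and Sparc-202. Sparc-201 held between 15.4% and 71.5% of the counts in metastasis, 33.8% and 70.8% in CTC and 29.5% and 72.1% in primary lines, against 72.5% in the parental line. The range within the metastasis lines alone nearly covered the range over all lines. The start window listed for Sparc lies 3103 bases inside the annotated gene, so it is not shown.

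Fn1 encodes fibronectin, the large adhesive glycoprotein that integrins bind and on which other matrix proteins assemble. It lies on chromosome 1 (chr1:71585520-71653200, minus strand, GRCm38; ENSMUSG00000026193.15) and was abundant in all 10 lines. It had 6753, 3991 and 3217 CPM in metastasis lines 5, 3 and 7, and 1170, 2582 and 3150 CPM in CTC lines 1, 3 and 6. Primary lines 5, 7 and 8 had 3300, 4160 and 4160 CPM, and the parental line had 2859 CPM. All CTC lines lay below all metastasis and all primary lines, though CTC 6 was close to metastasis 7. The mean was 4654 ± 1859 CPM in metastasis and 2301 ± 1020 CPM in CTC lines, and 3874 ± 497 CPM in primary lines (SD, n = 3 each). The log2 change was 1.02 (SE 0.39) for metastasis against CTC, with an unadjusted p of 0.0283 and an adjusted p of 1 (edgeR, Benjamini-Hochberg). Without metastasis 5 it was 0.65. It was -0.75 (SE 0.39) for CTC against primary and 0.26 (SE 0.39) for metastasis against primary, the last turning to -0.10 without metastasis 5. The genes most alike were Stx6 (r 0.92), Dus3l (0.90) and Pdgfc (0.90).

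Fibronectin is known for alternatively spliced repeats, the extra domains A and B, and a variable region. The EDA exon is shown because the form that holds it is the cellular, as opposed to the plasma, form of the protein. It has 270 bases (chr1:71603660-71603929, minus strand, GRCm38), printed in capitals between 10 bases of each neighbouring exon.
Fn1 EDA exon: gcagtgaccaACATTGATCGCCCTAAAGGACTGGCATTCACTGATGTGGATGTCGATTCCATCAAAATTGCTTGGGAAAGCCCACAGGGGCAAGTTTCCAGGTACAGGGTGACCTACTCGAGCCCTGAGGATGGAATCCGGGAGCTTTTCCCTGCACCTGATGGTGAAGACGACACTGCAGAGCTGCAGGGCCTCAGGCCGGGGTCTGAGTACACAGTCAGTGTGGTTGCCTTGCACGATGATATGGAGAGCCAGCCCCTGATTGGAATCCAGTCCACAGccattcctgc
Transcripts with the EDA exon held 51.4%, 55.4% and 56.6% of the Fn1 counts in metastasis lines 5, 3 and 7. They held 48.0%, 44.2% and 66.5% in CTC lines 1, 3 and 6 and 65.4%, 47.7% and 67.7% in primary lines 5, 7 and 8, against 56.8% in the parental line. The share averaged 54.5% ± 2.74 in metastasis and 52.9% ± 12.0 in CTC lines, and 60.3% ± 10.9 in primary lines (SD, n = 3 each), with overlapping groups. The cellular form thus held a large share in all lines, with no group apart from the others.

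The EDB exon, 273 bases long (chr1:71613763-71614035), was on 1.80% to 7.07% of the counts in metastasis, 4.82% to 10.9% in CTC and 3.15% to 10.6% in primary lines, against 5.51% in the parental line. The variable region exon comes in lengths of 467, 392 and 107 bases. The shortest held 47.6%, 29.7% and 8.17% of the counts in metastasis lines 5, 3 and 7, and 5.01%, 3.66% and 25.3% in CTC lines 1, 3 and 6. It held 7.90%, 12.0% and 26.4% in primary lines 5, 7 and 8 and 12.7% in the parental line. Metastasis 5, the line with the most Fn1, also had the largest share of this short form, and the groups overlapped. The longest form held 19.2% in metastasis 5 and 80.7% in CTC 3, the extremes over the 10 lines. Counts are shared among transcripts by the authors' processing, and Apol7d, which shares exons with Fn1 on the other strand, held 26 to 63 counts.

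Against the parental line, the fitted log2 change of Postn was -7.15 (SE 0.89), at an adjusted p of 0.0634 (edgeR, Benjamini-Hochberg), above the threshold. It passed when metastasis 7 was left out (log2 change -8.50, adjusted p 0.0495 in edgeR, Benjamini-Hochberg). It also passed by DESeq2 (adjusted p 3.20e-07), by limma-voom (adjusted p 0.00573) and by limma-voom with lines of the same number as a random block (adjusted p 0.00917), in a range of 3.20e-07 to 0.265 over all alternatives. Limma-voom called 0.115% of all genes in this comparison, limma-voom with the block 0.0602%, and edgeR without metastasis 7 0.0303%. The primary lines, at 8.59 to 19.4 CPM, lay between the parental line at 36.6 CPM and the others. For Sparc, Thbs1, Fn1, Tnc and Tgfbi the parental value lay within the range of the derived lines, and for Thbs2 it was 0, as in primary 8.

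Some of the 8 genes ordered the lines alike, as a description over the same 10 libraries. Postn and Spp1 had the most opposed order, with Pearson's r of -0.78 and Spearman's rho of -0.93 on log2 CPM. Spp1 went with Thbs2 (r 0.74, rho 0.87) and Sparc with Tgfbi (r 0.79, rho 0.83), while Postn went with Tnc (r 0.70, rho 0.66). Fn1 was nearly unrelated to Spp1 (r 0.04) and to Postn (r 0.10). The lines share ancestry, depth and scaling, and several share numbers, so that these values are no independent points.

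The other genes of the system were described from lists of relatives, receptors and regulators. Of 27 further matricellular genes 20 were tested, of 19 receptors 16, and of 24 regulators, processing enzymes and inhibitors 23. By edgeR none was called in any of the 6 comparisons. At an unadjusted p under 0.05 (edgeR) the relatives counted 1 to 3 genes per comparison, the receptors 1 or 2 and the regulators 2 to 6. Of all genes, 3.29% to 10.3% lay there, depending on the comparison. The regulators had 6 of 23 with both together against primary (7.59% of all genes) and 2 of 23 against parental (10.3%). Limma-voom called none either. DESeq2 called 5 relatives in derived lines against parental, Dmp1, Ibsp, Sparcl1, Ccn3 and Ccn5, all higher, where it called 3.38% of all genes. Among the receptors it called Itgb3 and Lrp1 higher against parental. It called Itgb6 lower in metastasis against primary (0.938% of all genes), in CTC against primary (0.331%) and in both together (0.778%). It also called Itgb6 in any difference (0.697%). Among the regulators it called Mmp2 and Mmp3 higher against parental, and 1 other gene lower in metastasis and in CTC lines against primary, in both together and in any difference. These genes are named because DESeq2 called them, so after their values were seen. Itgb6, the beta-6 integrin subunit, whose heterodimer binds tenascin-C and fibronectin, had 0.312, 0.118 and 0.545 CPM in metastasis lines 5, 3 and 7 and 0.0800, 0.170 and 0.366 CPM in CTC lines 1, 3 and 6. It had 0.627, 8.09 and 2.103 CPM in primary lines 5, 7 and 8 and 2.61 CPM in the parental line. All 6 metastasis and CTC lines lay below the primary lines, though metastasis 7 was close to primary 5 (log2 change of both together against primary -3.80, SE 0.80, adjusted p 0.504, edgeR). Of all genes, 1.55% lay lower without overlap in that comparison. In metastasis against CTC, 17 of the 20 matricellular relatives were higher and 3 lower, with a median log2 change of 0.59 (all genes 0.00). In metastasis against primary 10 were higher and 10 lower (median 0.53, all genes 0.01). The receptors had a median of -0.11 in metastasis against primary, and the regulators 0.49, with 15 of 23 higher.

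The most abundant relative per length was Lgals1, which encodes galectin-1, at 3949 CPM per kilobase on average, above Spp1. It had 2716, 3386 and 2467 CPM in metastasis lines 5, 3 and 7, and 4217, 3864 and 4731 CPM in CTC lines 1, 3 and 6. In primary lines 5, 7 and 8 it had 2793, 4050 and 3924 CPM, and the parental line had 3512 CPM. The metastasis lines lay below the CTC lines without overlap (3.85% of all genes), and this did not pass the test (log2 change -0.58, SE 0.22). Lgals3, which encodes galectin-3, had 174, 209 and 334 CPM in metastasis, 333, 264 and 818 CPM in CTC and 360, 240 and 831 CPM in primary lines, against 428 CPM in the parental line. Ccn1 and Ccn2, which encode integrin ligands known as targets of the YAP coactivator, ran from 48.5 to 686 CPM and from 29.1 to 406 CPM. Ccn1 had 501, 138 and 189 CPM in metastasis, 79.4, 53.1 and 126 CPM in CTC and 48.5, 496 and 686 CPM in primary lines, against 344 CPM in the parental line. Primary 7 and 8, highest in Tnc, were thus also among the highest in Ccn1, and primary 5 was lowest in it. Metastasis 5, the line lowest in Tnc, broke this order, with more Ccn1 than primary 7.

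Among the receptors, Itgb1, the beta-1 integrin subunit, had 284 CPM per kilobase, Itga3 160, Sdc4, the syndecan-4 gene, 85.7, and Lrp1, a scavenger receptor that takes up thrombospondins, 50.9. Lrp1 had 1545, 1452 and 575 CPM in metastasis, 1032, 1423 and 799 CPM in CTC and 1275, 370 and 371 CPM in primary lines, against 177 CPM in the parental line. All 9 derived lines lay above the parental line (14.1% of all genes), and the log2 change of 2.43 (SE 0.88) did not pass. Sdc4 was uneven within every derived group, with 27.4, 440 and 164 CPM in metastasis, 424, 25.3 and 226 CPM in CTC and 359, 271 and 15.9 CPM in primary lines, against 231 CPM in the parental line. These receptors were read in all lines, while of the list Itga4 had no count in any library.

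Among the regulators, Mmp3, the gene of stromelysin-1, which cleaves osteopontin and fibronectin, had 149 CPM per kilobase. Tgm2, the gene of a transglutaminase that crosslinks fibronectin and osteopontin, had 66.9, Smad3, a transducer of transforming growth factor beta, 39.2, and Mmp14, a membrane-bound protease gene, 38.5. Mmp3 had 93.5, 739 and 6.53 CPM in metastasis, 560, 886 and 75.5 CPM in CTC and 297, 9.63 and 6.28 CPM in primary lines, against 2.34 CPM in the parental line. Its range was wide within each derived group, and metastasis 7, primary 7 and primary 8 were below 10 CPM, as was the parental line. Tgm2 had 672, 367 and 264 CPM in metastasis, 335, 327 and 274 CPM in CTC and 238, 170 and 209 CPM in primary lines, against 228 CPM in the parental line. Its metastasis lines lay above its primary lines without overlap, as did 6.38% of all genes (log2 change 1.08, SE 0.34), and this did not pass.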

How the data were processed

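RNA-seq of 10 lines, 1 library each, was analysed from 2 tables. The deposited values are estimated counts per gene and per transcript in whole numbers, with no scaling by library. The submitters' processing notes name HISAT2 2.1.0, StringTie 2.0.3, DESeq2 1.26.0 and the build GRCm38, and the annotation release and the use of strand are not given in the sources used here. Of 141692 Ensembl transcripts in the deposited table, 141597 are in GENCODE M21, which gave the exons. The 17127 assembled transcripts tied to no gene, 19.7% to 22.8% of a library's counts, stayed out, so reads of a gene may sit under such an entry. Totals were 79869760 to 97722716 counts, and their number limits precision.

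Tests were quasi-likelihood F tests of edgeR 4.0.16 in R 4.3.3, after TMM and filterByExpr, all 10 libraries in 1 fit of 4 groups, Benjamini-Hochberg adjustment over 19935 genes and a threshold of 0.05. The single parental library is assumed to vary like the others. The SE is the absolute log2 change over the square root of F. The procedure was tested on counts simulated with less spread between libraries than in these data, whose common biological coefficient of variation was 0.606. That test therefore does not show how often the procedure finds a change here. Alternatives were other scalings and filters, all entries, only the groups compared, DESeq2 1.42.0, limma-voom (limma 3.58.1), blocks by line number and leaving out each derived line. No 2 libraries agreed within sampling noise.

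Same-number lines of different groups deviated together from their group means over genes. Their r was 0.319 (number 5), 0.406 (number 3) and 0.120 (number 7), against a median of -0.05 over other pairs. Line number served as a block in alternatives only, and the main fit has no block. A pairing would rest on these values alone, the meaning of a number being absent from the labels. Of lines with different numbers, CTC 6 and metastasis 7 had 0.506, and primary 8 and CTC 6 had 0.430.

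The 8 genes and the lists were chosen with earlier results of these data known. The text names, of each list, genes that passed and the 4 with the highest level per kilobase, and for each of the 8 genes the 3 named genes with the highest correlation at a mean log2 CPM of at least 1. Others are marked as chosen after their values were seen. Promoters are from RefSeq (GRCm38.p6), matched by symbol for 6 of the 8 genes. Protein sequences were not used here. 1 gene of the regulator list is counted but not reported here by name.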

Additional observations from a re-analysis of the deposited data

How the results depend on the processing

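The number of the 8 genes called moved with the tool. DESeq2 called 2 in metastasis against primary, 1 in CTC against primary, 2 in both together against primary, 2 in derived lines against parental and 1 in any difference, where edgeR called 0 in each. Limma-voom called 1 in both together against primary and 1 in derived lines against parental, Postn each time, and with the number as a random replicate block, which pairs the lines, also 1 and 1. The fixed block, on the 9 derived lines with 1 residual degree of freedom, called 0. Leaving out single derived lines gave 0 to 1 in derived lines against parental and 0 elsewhere. Over all genes, edgeR called 0 in metastasis against primary (DESeq2 187, limma-voom 0), 0 in CTC against primary (66, 0), 1 in metastasis against CTC (28, 1), 0 in both together against primary (155, 2), 4 in derived lines against parental (673, 23) and 0 in any difference (139, 0). With all entries of the table edgeR called 42 in derived lines against parental.

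Of 778 log2 changes of the 8 genes under alternatives, 739 kept sign and side of the threshold, 12 passed it with the same sign and 27 turned sign. The main edgeR fit called none of the 8 genes, so these numbers say nothing about how called changes hold. With limma-voom Tgfbi was at -0.71 in metastasis against primary and -0.0145 with both together. With the fixed block, which pairs the lines, Tgfbi was at -1.90 in metastasis, in CTC and in both together against primary, Thbs2 at -1.06 in CTC against primary, Thbs1 at 0.13 and Fn1 at 0.0301 with both together, and in metastasis against CTC Postn was at 0.00, Sparc at -0.32 and Tgfbi at 0.0005. With the random block Tgfbi was at -1.50, -0.0945 and -0.80 in metastasis, CTC and both together against primary. The cause was not tested.

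Leaving out single lines moved metastasis against primary from -0.33 to 1.83 for Thbs1, from -0.10 to 0.47 for Fn1 and from -0.72 to 2.08 for Tgfbi. CTC against primary ran from -1.59 to 0.0492 for Thbs1, from -0.30 to 4.21 for Thbs2, from -0.18 to 0.50 for Sparc and from -0.43 to 2.13 for Tgfbi. Metastasis against CTC ran from -4.72 to 0.34 for Postn, from -0.21 to 0.74 for Sparc and from -1.69 to 1.35 for Tgfbi, and both together against primary from -0.73 to 0.94 for Thbs1. Scaling choices turned no sign. Depth limits Postn in metastasis and CTC lines, Thbs2 and Tgfbi, which rest on few counts.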

Other observations

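Ccn5, Ccn3 and Ccn4, further matricellular relatives, were chosen after their values were seen. Every derived line was above the parental line for Ccn5 and Ccn3 and below it for Ccn4. Of all genes, 14.1% were above the parental line in every derived line and 15.4% below it. Ccn5, which encodes a member of the CCN family without the C-terminal knot domain, had 234, 26.3 and 5.69 CPM in metastasis lines 5, 3 and 7, and 22.5, 18.6 and 0.930 CPM in CTC lines 1, 3 and 6. Primary lines 5, 7 and 8 had 16.6, 0.987 and 0.330 CPM, and the parental line had 0.297 CPM. Metastasis 5 was thus highest in Ccn5, as in Thbs2 and Sparcl1, and the change against primary did not pass by edgeR (log2 change 3.89, SE 1.82). Ccn3 had 42.4, 13.5 and 4.91 CPM in metastasis, 20.7, 13.7 and 14.3 CPM in CTC and 24.6, 0.697 and 3.52 CPM in primary lines, against 0.637 CPM in the parental line. Ccn4 was highest in the parental line, at 68.5 CPM, and had 26.6, 10.3 and 13.3 CPM in metastasis, 2.35, 7.99 and 25.0 CPM in CTC and 14.6, 33.9 and 36.0 CPM in primary lines.

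Adamts1, the gene of a protease that cleaves thrombospondins, was chosen in the same way. Adamts1 had 14.7, 8.30 and 55.9 CPM in metastasis, 5.55, 8.86 and 79.8 CPM in CTC and 16.0, 210 and 326 CPM in primary lines, against 226 CPM in the parental line. Metastasis 7, CTC 6, primary 7, primary 8 and the parental line thus stood above the other 5 lines in Adamts1, which are the 5 with the most Spp1.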
